A study of Mus musculus with 6 samples.

Results

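Glutathione is the main thiol of the hepatocyte, a tripeptide that reduces peroxides and is joined to electrophiles before they leave the cell. It is made by 2 ligases in turn, first glutamate-cysteine ligase, a dimer of a catalytic and a modifier subunit that sets the rate, and then glutathione synthetase. It is regenerated from its disulfide by glutathione reductase with NADPH, and it leaves the cell through transporters and is taken apart outside it by gamma-glutamyl transferase. Its amino acids return through the gamma-glutamyl cycle and through cystine import. The genes Gclc, Gclm, Gss, Gsr, Ggt1, Ggct, Oplah, Slc7a11, Glrx and Abcc4, which cover these steps, were examined in the livers of mice fed soy. They were chosen by name, with earlier results of these data known, so counts over them are a description only. The non-control probes whose RefSeq accession belongs to them number 12 of 56605, for 10 of 22911 genes. There was 1 probe for 8 of the genes, and 2 probes for Gss and Slc7a11.

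The control group was 3 male mice fed 100% granulated regular food, and the soy group 3 male mice fed 75% regular food mixed with 25% soy bean powder, both for 4 weeks from an age of 12 weeks. The sources used here name no strain and no other treatment. Liver RNA of each mouse, a biological replicate, was hybridized to 1 Agilent array in 1 colour. Of 59305 spots an array, 36366 to 38163 were well above background in control livers and 31308 to 32498 in soy livers, and the number of arrays limits the precision of every value. Of the 3 slides, slide 1 held control 1, control 2 and soy 1, slide 2 held soy 2 alone, and slide 3 held control 3 and soy 3. With the slide as a block, soy 2 therefore adds nothing to a change, which rests on slides 1 and 3. Such a fit also has less data left to estimate the spread. The tissue was whole liver, so that fewer cells of a type and less RNA per cell cannot be told apart.

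Levels are given as normalized signal on a log2 scale, changes as soy minus control on that scale, and tests are those of limma with p-values adjusted over all 56605 probes. Probes are said to pass where the adjusted p was under 0.05 and the fold above 1.5 or under 0.66, and 0.35% of all probes did (0.34% of genes on any probe higher in soy, and 0.192% lower). None of the 10 genes passed. At an unadjusted p under 0.05, 6 of them were higher in soy (Gclc, Gclm, Gss, Gsr, Oplah and Abcc4), where 7.22% of all genes were, each gene taken by its brightest probe. The groups did not overlap for 5 genes, all higher in soy (Gclc, Gclm, Gss, Oplah and Abcc4), where 9.66% of all genes were higher without overlap. Among genes well above background throughout a group, these shares were 9.9% and 12.2%. The median change was 0.38 over the 10 genes and -0.0056 over all genes. Without Ggt1 and Slc7a11, which were at background, it was 0.42 over the other 8, and it was -0.019 over genes well above background throughout a group.

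**Figure D1:**
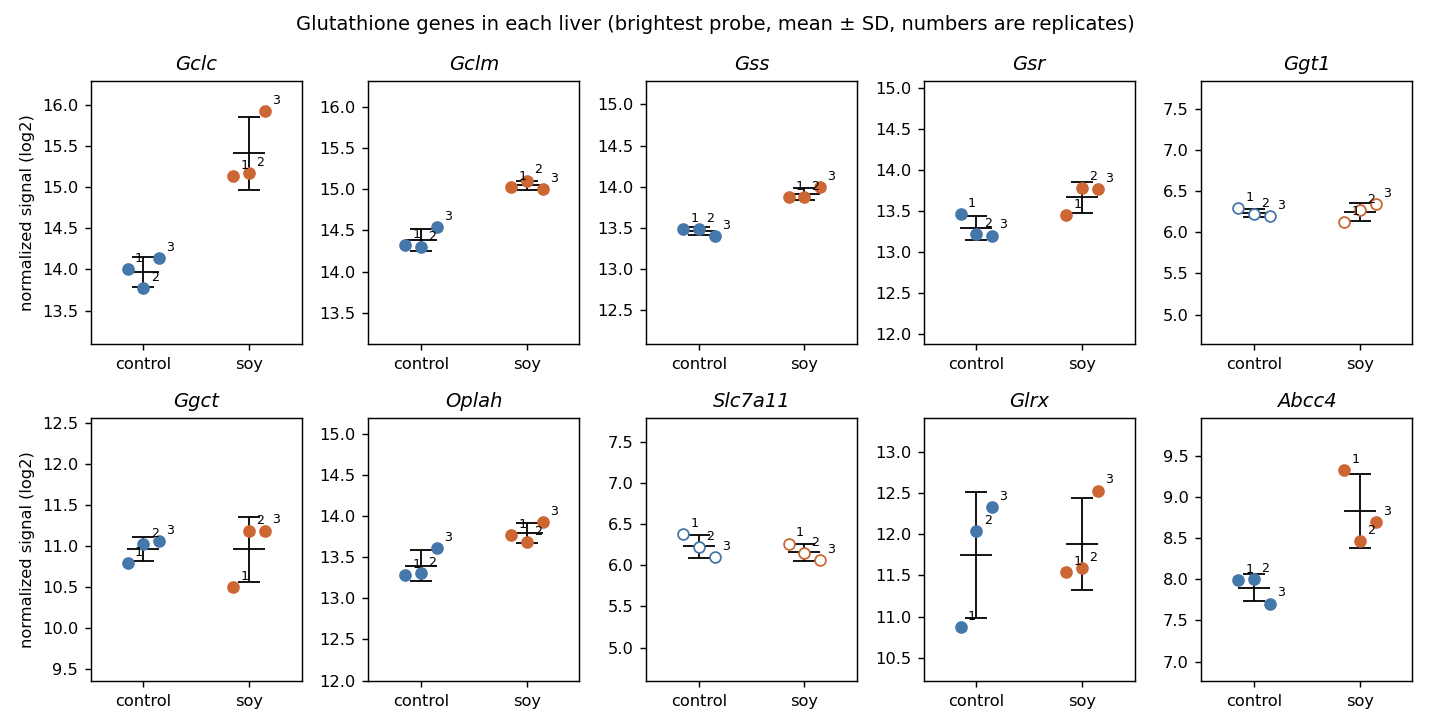
Normalized signal (log2) of each glutathione gene in the 3 control and 3 soy livers, by its brightest probe, with points numbered by replicate and bars for mean ± SD. Each panel spans the same range of log2 units around its own mean, and open points mark genes well above background on no array. The soy points lie above all control points for Gclc, Gclm, Gss, Oplah and Abcc4 and mix with them for the other genes.

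Upstream of these genes, RefSeq's table of promoters (GRCm38.p6) held entries for 7 of the 10, namely Gclm, Gss, Ggt1, Ggct, Slc7a11, Glrx and Abcc4. The 250 bases before each start were searched on both strands for the core of the antioxidant response element, TGACNNNGC, the sequence that NRF2 binds with a small MAF partner. The 7 genes had 12 promoters, since Ggt1, Glrx and Abcc4 had several. The core was found in 6 of these, against 10.2% of all 32851 promoters, and in at least 1 promoter of 4 genes (Gclm, Ggt1, Ggct and Abcc4), against 3112 of all 27025 genes. The amino acid response element, searched as TGATGNAAN, was found in the promoter of Slc7a11, in 3.44% of all promoters and for 1052 of all 27025 genes, and in these genes no match of one motif overlapped a match of the other. The windows below are of 30 bases on the strand of the gene, with the match in capitals, that of the amino acid response element for Slc7a11 and of the antioxidant response element for the others. They are shown to set genes whose groups did not overlap (Gclm, Abcc4) beside 1 whose groups did (Ggct) and 1 that was not well above background (Slc7a11). The Gclm window is chr3:122245413-122245442 on the plus strand, its match beginning 134 bases before the start. The Abcc4 windows are chr14:118706225-118706254 and chr14:118676935-118676964 on the minus strand, before 2 of its starts. The Ggct window is chr6:54993022-54993051 on the minus strand. Slc7a11 had 2 matches, beginning 66 and 48 bases before the start, in windows chr3:50443660-50443689 and chr3:50443642-50443671 on the minus strand, and the last bases of the first window begin the match of the other.
Gclm: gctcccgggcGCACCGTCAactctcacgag
Abcc4, first start: gccccgagagGCGGGGTCAgggcgggccgg
Abcc4, other start: aataatctcgTGACTCTGCcgtggtggata
Ggct: caatagaaaaGCGACGTCAgtgggcgggag
Slc7a11, forward match: ctcatgtggcTGATGCAAAcctggagaatt
Slc7a11, reverse match: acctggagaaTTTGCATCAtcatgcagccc
The core of the antioxidant response element was thus present before the start of genes with and without a separation of the groups, and the windows are a description of sequence only.

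The ligase that starts glutathione synthesis gave the smallest p-values of the set. Gclc (NM_010295), the catalytic subunit, was at 14.01, 13.77 and 14.13 (log2) in the control livers and at 15.14, 15.17 and 15.92 in the soy livers. Soy 3 lay apart above the other soy livers, and the lowest soy liver was 1.00 above the highest control liver. The change was 1.44 (SE 0.22, 95% confidence interval 0.93 to 1.95), which is a 2.71-fold higher signal, with an unadjusted p of 0.000225 and an adjusted p of 0.0529. The gap was present before any normalization, the median spot intensity being 20516.5, 14500.5 and 16967 in control livers and 34415.5, 31206 and 61780.5 in soy livers. Within slide 1 the change was 1.25, within slide 3 it was 1.79, and with the slide as a block it was 1.48 (adjusted p = 0.112).

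Gclm (NM_008129), the modifier subunit, which raises the affinity of the ligase for glutamate, was at 14.33, 14.29 and 14.54 in control and at 15.03, 15.11 and 15.00 in soy livers. Its soy livers were the more even group, spanning 0.10 against 0.25 in the controls, and the gap between the groups was 0.47. The change was 0.66 (SE 0.11, interval 0.42 to 0.91), or 1.58-fold, with an adjusted p of 0.0591. It was 0.72 within slide 1, 0.47 within slide 3 and 0.61 with the slide as a block (adjusted p = 0.227). The change of Gclc exceeded that of Gclm by 0.78 on the log2 scale, and by 0.50 without soy 3. In an exact two-sided permutation test of the difference between the signals of both subunits this gave p = 0.1, the smallest that 3 against 3 livers allow. With only probes well above background tested, both subunits passed (adjusted p = 0.0278 for Gclc and 0.0338 for Gclm), and so they did with the trend and robust settings (0.0449 and 0.0413). With any 1 array left out neither passed, the adjusted p lying between 0.0703 and 0.173 for Gclc and between 0.0656 and 0.203 for Gclm.

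Gss (NM_008180), glutathione synthetase, adds glycine in the last step of synthesis. Its brighter probe was at 13.48, 13.49 and 13.40 in control and at 13.87, 13.88 and 13.99 in soy livers. Both groups were narrow, spanning 0.084 and 0.12, and lay 0.38 apart. The change was 0.45 (SE 0.093, interval 0.24 to 0.67), or 1.37-fold, with an adjusted p of 0.114, so the difference was small beside that of Gclc and under the fold threshold. A dimmer probe of the same transcript gave 0.41 (SE 0.17, adjusted p = 0.424), its groups lying 0.064 apart. The within-slide changes of the brighter probe were 0.38 on slide 1 and 0.59 on slide 3.

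**Figure D2:**
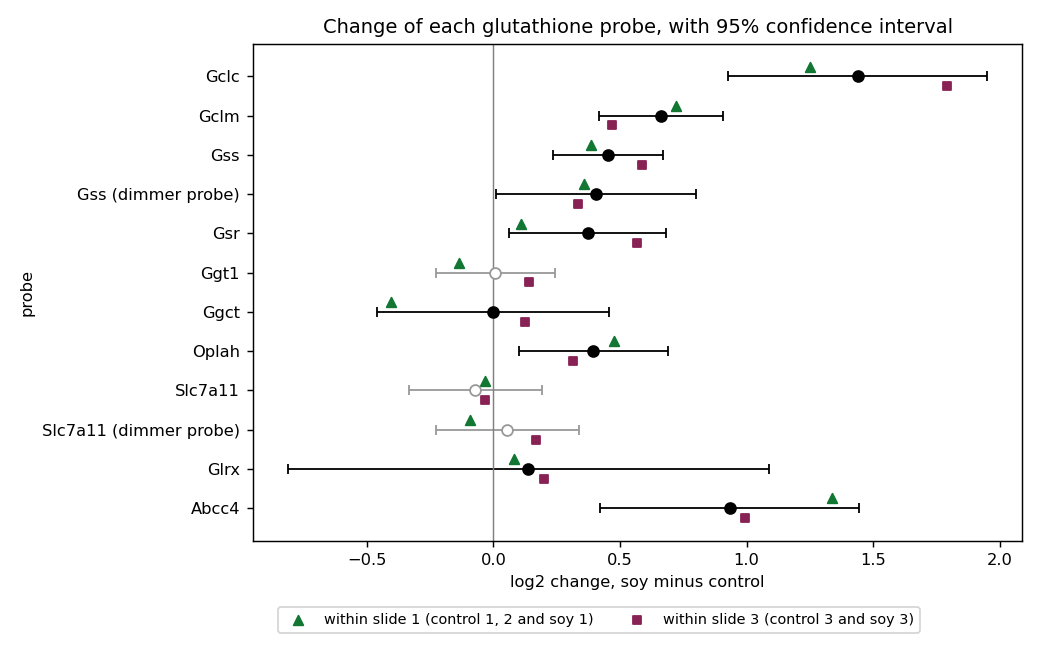
Change of each of the 12 glutathione probes (log2, soy minus control), with circles for the estimate of limma, bars for its unadjusted 95% confidence interval, triangles for the change within slide 1 and squares for that within slide 3. Open grey circles are probes well above background on no array, and the interval of Gclc, 0.93 to 1.95, lies farthest from 0.

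Recycling and the use of glutathione as a reductant are represented by Gsr and Glrx. Gsr (NM_010344), glutathione reductase, which returns the disulfide to the thiol form, was at 13.46, 13.21 and 13.20 in control and at 13.45, 13.78 and 13.77 in soy livers. Control 1 and soy 1, both on slide 1, were nearly equal, so the groups overlapped by 0.017. The change was 0.37 (SE 0.13, interval 0.063 to 0.68, adjusted p = 0.342), with 0.11 within slide 1 and 0.57 within slide 3. Glrx (NM_053108), glutaredoxin, which removes glutathione from protein thiols, had the widest spread of the set, at 10.88, 12.04 and 12.33 in control and at 11.54, 11.59 and 12.53 in soy livers. The groups were interleaved, with control 1 the lowest of all and soy 3 the highest. Its change was 0.14 (SE 0.41, adjusted p = 0.927), and the interval, -0.81 to 1.09, holds changes of either sign larger in size than that of Gclm. Without control 1 the change was -0.30, and without soy 3 it was -0.18.

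Of the genes of the gamma-glutamyl cycle, Oplah (NM_153122), 5-oxoprolinase, which opens the cyclic product of the cycle to glutamate, was at 13.28, 13.31 and 13.61 in control and at 13.77, 13.69 and 13.92 in soy livers. The groups lay only 0.077 apart, between control 3 and soy 2. The change was 0.39 (SE 0.13, interval 0.10 to 0.69, adjusted p = 0.290), with 0.48 within slide 1 and 0.32 within slide 3. Ggct (NM_026637), gamma-glutamylcyclotransferase, which makes that cyclic product, was at 10.79, 11.02 and 11.06 in control and at 10.50, 11.18 and 11.19 in soy livers. Soy 1 was the lowest and the other soy livers the highest, so the control values lay inside the soy range. The change was -0.0011 (SE 0.20, interval -0.46 to 0.46, adjusted p = 0.999), and its direction differed between slides, with -0.40 within slide 1 and 0.12 within slide 3. Without soy 1 it was 0.23.

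Ggt1 (NM_008116), the gamma-glutamyl transferase that begins the breakdown of extracellular glutathione, was well above background on none of the 6 arrays, at 6.29, 6.22 and 6.20 in control and at 6.12, 6.27 and 6.34 in soy livers. The same held for both probes of Slc7a11 (NM_011990), the cystine carrier of the cystine-glutamate exchanger. The brighter Slc7a11 probe was at 6.38, 6.22 and 6.10 in control and at 6.27, 6.15 and 6.06 in soy livers. These values give no fold change, since both groups were at background. Abcc4 (NM_001033336), an efflux pump of the sinusoidal membrane that carries glutathione together with bile acids and conjugates, was well above background on every array, at 7.99, 8.00 and 7.71 in control and at 9.33, 8.46 and 8.70 in soy livers. Soy 1 was the highest liver and the groups lay 0.46 apart. The change was 0.93 (SE 0.22, interval 0.42 to 1.44), or 1.91-fold, with an adjusted p of 0.155. It was 1.34 within slide 1, 0.99 within slide 3 and 1.19 with the slide as a block (adjusted p = 0.105), and without soy 1 it was 0.69.

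The livers that stood highest thus differed from gene to gene. Soy 3 was the highest liver for Gclc, Gss, Oplah and Glrx, soy 2 for Gclm and soy 1 for Abcc4. Over the 6 arrays, Gss, Oplah and Gclm had Pearson r of 0.96, 0.92 and 0.91 with Gclc, Gsr 0.83, Abcc4 0.74, Glrx 0.31 and Ggct 0.16, given as a description of 6 points that share the split by diet. Of 13498 other genes well above background on all arrays, 513 had an r above 0.9. The 5 with the highest r were Ypel2 (0.995), Pitpnm1 (0.995), Txnrd3 (0.994), Ccdc189 (0.993) and Pkp4 (0.992). Txnrd3, a thioredoxin reductase with a glutaredoxin domain, was at 10.29, 10.28 and 10.33 in control and at 10.43, 10.46 and 10.52 in soy livers, and the change was 0.17 (adjusted p = 0.525), so that its pattern and not its size was like that of Gclc.

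The other genes of the pathway were taken from 10 lists with 79 genes, of which 78 were matched to probes and Nnt was not. On at least 1 probe, 5 of the 78 passed as higher in soy (Abcc3, Tkt, Gstm1, Gstm4 and Glo1) and 1 as lower (Got1). With the slide as a block, of all probes of these 6 genes only the dimmer one of Got1 passed (0.0279). The brighter Got1 probe did not (0.0870), and the lowest adjusted p of the other genes was 0.0954 for Glo1, 0.0995 for Gstm4, 0.127 for Abcc3 and for Gstm1 and 0.136 for Tkt. All 6 had the same direction within slide 1 and within slide 3. With a normexp offset of 16, Gstm4 (0.0403) and the dimmer Got1 probe (0.0345) passed, the brighter Got1 probe did not (0.0540), and for the other genes the lowest adjusted p was 0.0617 for Gstm1, 0.0625 for Glo1, 0.0710 for Abcc3 and 0.0987 for Tkt. Without overlap, 20 were higher and 9 lower by the brightest probe, where 9.66% and 10.8% of all genes were, and the median change was 0.056.

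Among carriers, 1 of 7 genes for glutathione export and mitochondrial import passed. Abcc3, an efflux pump for glucuronides and glutathione conjugates at the sinusoidal membrane like Abcc4, rose from 14.07, 14.03 and 14.00 to 14.90, 14.77 and 14.92, a change of 0.82 (SE 0.095, adjusted p = 0.0244). The levels within each group lay closer together than those of Abcc4. Its dimmer probe gave 0.74 (adjusted p = 0.0824), and with any 1 array left out neither probe passed (adjusted p 0.0580 to 0.102 for the brighter one). Abcc2, the pump that carries glutathione and its conjugates into bile, gave 0.34 (adjusted p = 0.337) without overlap. None of the 7 other carriers for cystine and glutamate passed. Slc1a4, a carrier of neutral amino acids, was at 14.76, 14.06 and 13.78 in control and at 13.35, 13.18 and 13.25 in soy livers, and the change was -0.94 (SE 0.23, adjusted p = 0.172).

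None of the 11 other enzymes of the gamma-glutamyl cycle passed. Ggt6, a relative of Ggt1, was well above background on all arrays, at 11.61, 11.96 and 12.03 in control and at 12.64, 12.54 and 12.72 in soy livers, and the change was 0.77 (SE 0.13, adjusted p = 0.0749). It passed among probes well above background (0.0414) and with Agilent's processed signal (0.00936), and in no other setting, the highest adjusted p being 0.231 without soy 3. Ggt5, another relative, was well above background in the 3 control livers, at 7.15, 6.74 and 6.73, and in no soy liver, at 6.34, 6.39 and 6.69 (adjusted p = 0.381). Control 3 and soy 3, on the same slide, differed by only -0.043, so no fold is given.

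Of 8 genes listed for the supply of NADPH, the electron donor of Gsr, 1 passed. This was Tkt, transketolase of the pentose phosphate pathway, an enzyme that does not itself make NADPH. Its signal rose from 13.87, 13.95 and 13.75 to 14.74, 14.57 and 14.59, a change of 0.78 (SE 0.10, adjusted p = 0.0364). Tkt did not pass with any 1 array left out (0.0776 to 0.127). Me1, malic enzyme, gave 0.67 (SE 0.16, adjusted p = 0.152). G6pdx, which begins the pentose phosphate pathway, gave -0.73 (SE 0.23, adjusted p = 0.283), with -1.07 within slide 1 and -0.015 within slide 3. Of the 8 genes, 7 had a positive change, G6pdx being the exception, but the sign of 2 of them rested on 1 liver, Pgd being -0.013 without control 1 and H6pd -0.031 without control 2. In the glutaredoxin and thioredoxin systems 0 of 8 genes passed in limma, and Txnrd1, thioredoxin reductase, gave 0.36 (adjusted p = 0.296) on its brighter probe and 0.60 (adjusted p = 0.435) on a dimmer one, both without overlap. The dimmer probe gave 0.28 without control 1, and 0.91 within slide 1 against 0.27 within slide 3.

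The genes of precursor supply included 1 that passed, as lower. The list for cysteine supply from methionine held 4 genes of the methionine cycle (Mat1a, Ahcy, Gnmt and Bhmt) and the transsulfuration enzymes Cbs and Cth. All 6 had a negative change, with a median of -0.29, and none passed. Cth and Cbs, whose enzymes release cysteine and join homocysteine to serine, gave -0.085 and -0.15 with overlapping groups, and their sign rested on 1 liver each, being 0.033 for Cth without control 2 and 0.082 for Cbs without soy 1. Bhmt, which returns homocysteine to methionine, gave -0.41 (adjusted p = 0.449) without overlap, and -0.20 without soy 3. Of 8 genes that supply glutamate and glycine, Got1, the cytosolic aspartate aminotransferase, passed as lower on both of its probes. It fell from 16.76, 16.33 and 15.59 to 14.09, 14.17 and 13.79, a change of -2.21 (SE 0.28, adjusted p = 0.0310) by the brighter probe and of -2.23 (adjusted p = 0.0177) by the dimmer one. With 1 array left out, the brighter probe passed only without control 3 (0.0137, other fits 0.0533 to 0.119), and the dimmer one without control 3 (0.0167) and without control 1 (0.0489, other fits 0.0608 to 0.0745). Shmt1, which makes glycine from serine, gave -0.29 (adjusted p = 0.445) on its brighter probe, and -0.11 with overlapping groups on the dimmer one, which was 0.092 within slide 1, -0.35 within slide 3 and -0.023 without control 3.

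Among the 6 genes listed for cysteine breakdown and taurine synthesis was Csad, the decarboxylase that leads from cysteine sulfinate to taurine. Its signal was at 14.32, 12.96 and 14.32 in control and at 16.04, 15.99 and 16.28 in soy livers. The soy livers were even and control 2 lay apart below the other controls. The change was 2.24 (SE 0.35, adjusted p = 0.0543), and it passed without control 2 (0.0270), among probes well above background (0.0278), with the 75th-percentile shift (0.0412) and with Agilent's processed signal (0.00814). In all other settings it did not pass, among them the slide as a block (0.209), the trend and robust settings (0.111) and the other fits without 1 array (0.0658 to 0.176). Cdo1, the dioxygenase before it, gave -0.011 (adjusted p = 0.985), and between -0.14 without control 3 and 0.058 without control 1.

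Of 9 genes whose enzymes use glutathione, 3 passed, all higher in soy. The list was chosen with earlier results of these data known. It held no transferase of the mu class other than Gstm1 and Gstm4, so the count is a description only. Gstm4 and Gstm1, transferases of the mu class, rose by 1.19 (adjusted p = 0.0167) and 0.96 (adjusted p = 0.0398). A dimmer probe of Gstm1 gave 1.20 (adjusted p = 0.0287). The brighter Gstm1 probe did not pass with cyclic loess (0.0664) or the 75th-percentile shift (0.0543), where the dimmer one did (0.0312 and 0.0166). Glo1, glyoxalase, which needs glutathione to remove methylglyoxal, passed on 2 of its 3 probes, with 1.22 (SE 0.15, adjusted p = 0.0310) and 1.14 (adjusted p = 0.0326), while its brightest probe gave 1.27 with an adjusted p of 0.0635. With 1 array left out, Gstm4 passed only without control 3 (0.0249, other fits 0.0530 to 0.0713), the brighter Gstm1 probe only without control 1 (0.0344, other fits 0.0895 to 0.154), the dimmer one only without control 3 (0.0214, other fits 0.0765 to 0.113), and no Glo1 probe in any fit (0.0531 to 0.194). Gpx4, the peroxidase for lipid hydroperoxides, gave 0.46 (adjusted p = 0.196), and Gstk1, a mitochondrial and peroxisomal transferase, 0.37 (adjusted p = 0.460), both without overlap. Without soy 3 the change of Gstk1 was 0.18.

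**Figure D3:**
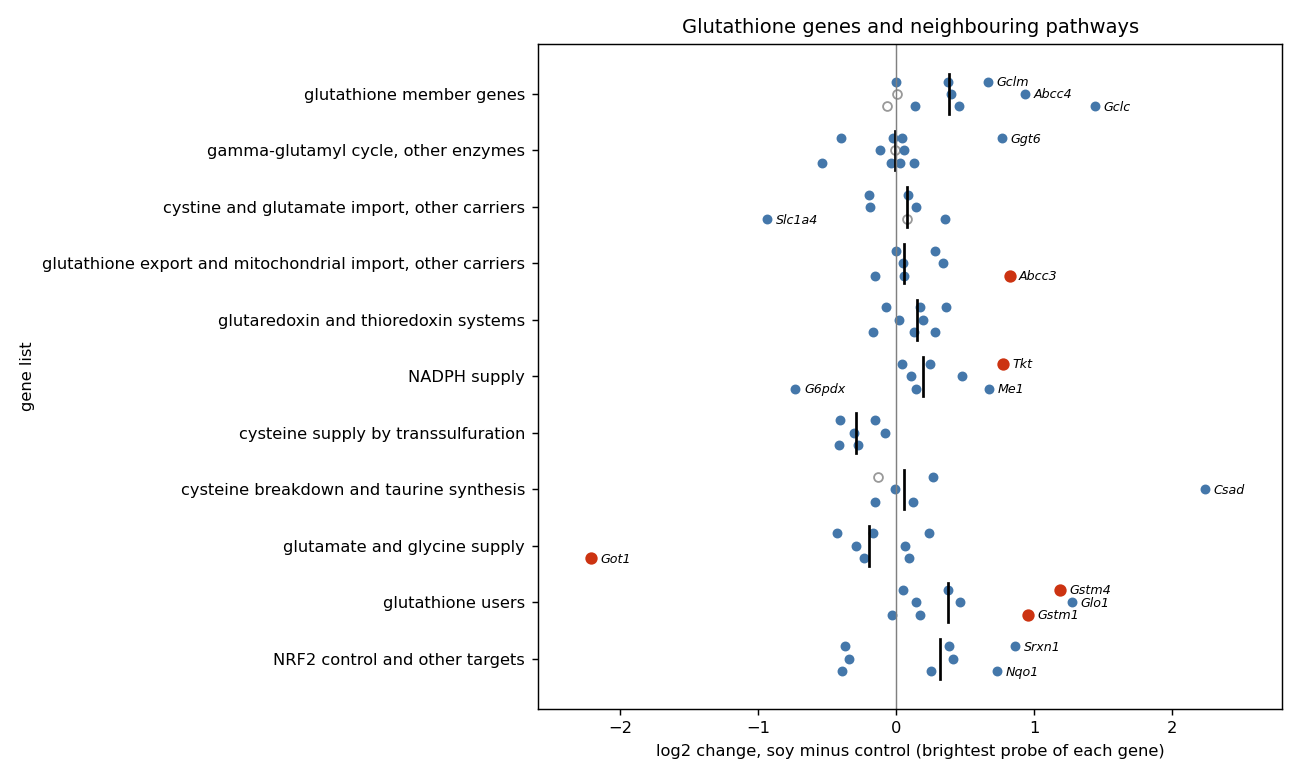
Change (log2, soy minus control) of each gene by its brightest probe, for the 10 glutathione genes and for the 10 other lists, with red points for genes that passed both thresholds on that probe, open points for genes well above background on no array and black bars for list medians. Genes with a change beyond 0.6 in size are named, and the 6 points in the row for cysteine supply, 4 of them genes of the methionine cycle, lie below 0.

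NRF2, encoded by Nfe2l2, binds the antioxidant response element, KEAP1 holds it back and BACH1 competes with it. None of the 8 genes of this list passed, while the groups overlapped for none of them, 5 being higher in soy, where 9.66% of all genes were higher without overlap, and 3 lower, where 10.8% were. The gap between the groups was only 0.0064 for Hmox1 and 0.022 for Nfe2l2. Among its targets, Srxn1, sulfiredoxin, was at 12.27, 12.26 and 12.01 in control and at 12.81, 13.09 and 13.22 in soy livers, and the change was 0.86 (SE 0.14, adjusted p = 0.0607). It passed among probes well above background (0.0326), with the trend and robust settings (0.0426) and with the processed signal (0.0131), and in no other setting, the highest adjusted p being 0.251 with the slide as a block. Nqo1, a quinone reductase, gave 0.73 (adjusted p = 0.145), whereas Hmox1, heme oxygenase, gave -0.34 (adjusted p = 0.387). Nfe2l2 itself gave 0.25 (adjusted p = 0.549), and 0.11 without control 3. Keap1 gave 0.38 (adjusted p = 0.278) and Bach1 -0.37 (adjusted p = 0.279). Of the small MAF partners, Mafg gave 0.41 (adjusted p = 0.355), and 0.25 without control 3, and Mafk -0.39 (adjusted p = 0.165).

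The label of the tissue was checked with markers. All 6 hepatocyte markers were well above background on every array, with Alb the brightest, and their summed signal, relative to the control mean, was 0.98, 1.01 and 1.02 in control and 1.02, 0.96 and 0.91 in soy livers. For the 6 cholangiocyte markers, cells of the bile duct in which Ggt1 is also known, the sums were 1.23, 0.88 and 0.88 in control and 1.13, 0.87 and 1.20 in soy livers. Spp1 was the brightest, Epcam was well above background on no array, and Krt7 and Cftr were so on the control arrays only. For the 6 Kupffer cell markers, with Cd5l the brightest, the sums spanned 0.67 to 1.28 in control and 0.91 to 1.41 in soy livers, lowest in control 1 and highest in control 3 and soy 3, as was the signal of Glrx. For the 4 blood cell markers, with Hba-a1 the brightest, they were 1.07, 0.79 and 1.14 in control and 0.88, 1.80 and 1.04 in soy livers, a sum that Hba-a1 dominates. All 4 blood markers had a positive change with overlapping groups, with a median of 0.50, among them the neutrophil genes S100a8 (0.58, adjusted p = 0.445) and S100a9 (0.62, adjusted p = 0.482). These values rested on single livers. Alas2 was -0.42 without control 2 and Hba-a1 -0.068 without soy 2, and without control 1 S100a8 was 0.29 and S100a9 0.33. Stellate cell sums (5 markers, Dcn the brightest) spanned 0.92 to 1.05 in control and 0.92 to 1.00 in soy livers, and endothelial cell sums (5 markers, Clec4g the brightest) 0.97 to 1.04 and 0.99 to 1.14. No marker passed, and the summed signals of both groups overlapped for all 6 cell types. The sums add signal on the linear scale, so the brightest marker weighs most in each and can hide changes of dimmer ones. By single genes the groups did not overlap for Cps1, Krt7 and Col1a1, lower in soy, where 10.8% of all genes were. Nor did they for Clec4g, higher in soy, where 9.66% of all genes were. Col1a1 gave -0.99 (adjusted p = 0.317), and -0.61 without control 1. The part of these cells in the values above was not tested.

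**Figure D4:**
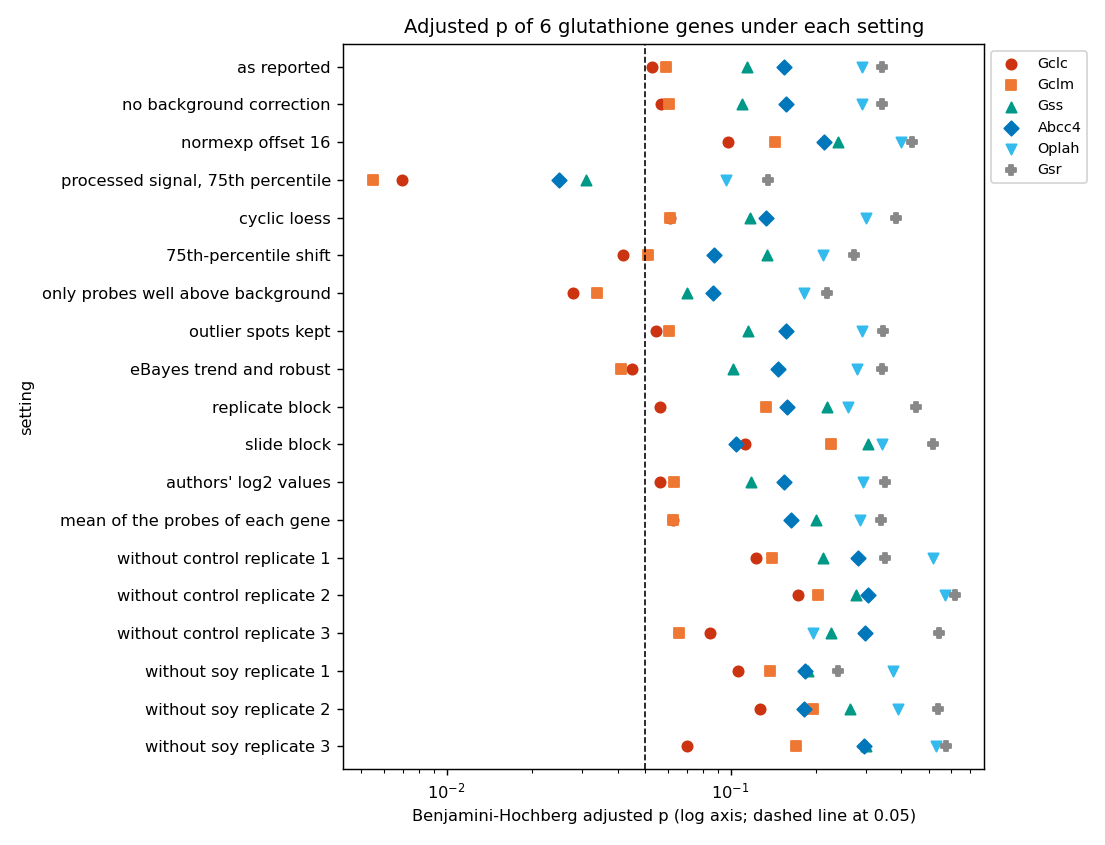
Adjusted p (log axis) of 6 glutathione genes in the fit reported here, in each other setting and with each array left out, with 1 marker per gene and a dashed line at 0.05. Gclc lies left of the line in 4 of the other settings, Gclm in 3, and Gss and Abcc4 in 1 each, and no marker does when an array is left out.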

How the data were processed

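The authors hybridized Cy3-labelled liver RNA of 6 mice to Agilent G3 mouse arrays in 1 colour, and per the file headers the deposited spot intensities were extracted with Feature Extraction 11.5.1.1. Their deposited table of log2 values, made in R/Bioconductor, differed from the values computed here by at most 0.0561; its background correction is not given in the sources used here.

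Median spot intensities were corrected against the local background (normexp, offset 50), quantile normalized and taken to log2 in limma 3.58.1 (R 4.3.3), leaving out control and outlier spots and averaging spots of a probe. Groups were taken from the sample titles, 3 control and 3 soy arrays were compared with lmFit and eBayes, and p-values were adjusted by Benjamini-Hochberg over 56605 probes, of which 198 passed. Differences of 2 probes were tested by exact permutation. Symbols were assigned to 32994 probes (58.3%) through RefSeq accessions, and a gene was read from its brightest probe. The array was annotated on mm9 and the RefSeq table on GRCm38.p6, so gene coordinates were not used. The analysis was tested on simulated data.

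The members and lists were chosen with earlier results of these data known. All members were named, and of each other list the genes that passed and up to 2 with the largest change among those without overlap, plus the 5 genes most like Gclc. Mat1a, Ahcy, Gnmt, Cth, Cbs, Pgd, H6pd, Cdo1, Nfe2l2, Keap1, Bach1, Mafg, Mafk, Hmox1, Alas2, S100a8, S100a9 and the markers without overlap were named after their values were seen. For genes outside that rule, changes without 1 array are differences of group means of the same normalized values, added after seeing the data. Alternatives were another background correction, signal, normalization, probe filter, variance model, probe rule, a block for replicate number or slide, the authors' values, and each array left out.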

Additional observations from a re-analysis of the deposited data

How the results depend on the processing

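The 198 probes past both thresholds (118 higher in soy) became 77 with a normexp offset of 16 (43 higher) and 299 with a 75th-percentile shift (202 higher). They numbered 493 among probes well above background (281 higher) and 24 with the slide as a block (11 higher), where soy 2 adds nothing. With Agilent's processed signal, which was also scaled by a 75th-percentile shift in place of quantile normalization, they numbered 13138 (11924 higher). With 1 array left out they numbered 25 (without soy 2) to 208 (without control 3), with 103 without control 1, 78 without control 2, 48 without soy 1 and 29 without soy 3. Of the glutathione genes, 0 passed in the fit reported here and in each fit without 1 array. With the processed signal 5 passed, among them Gclc at 1.43 (adjusted p = 0.00695), Gclm at 0.69 (0.00548) and Abcc4 at 1.31 (0.0249). The other 2 were Ggt1 and Slc7a11, which were well above background on no array. Of 18201 such probes, 11065 passed as higher under that signal, with a median change of 1.13. With the 75th-percentile shift 1 passed (Gclc, 1.41), and 2 passed both among probes well above background and with trend and robust settings (Gclc, 1.44, and Gclm, 0.66). Fewer probes were tested in the former, and for the other settings the cause was not tested.

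Over all settings Gclc spanned 1.18 to 1.58, Gclm 0.61 to 0.74, Gss 0.42 to 0.47, Gsr 0.30 to 0.48, Oplah 0.33 to 0.50 and Abcc4 0.69 to 1.31, each higher in soy throughout. Ggct spanned -0.18 to 0.23 over all settings and so took either sign. It reversed to 0.012 with the processed signal, and spanned -0.12 to 0.23 with 1 array left out. Glrx spanned -0.30 to 0.43 with 1 array left out. The mean of the probes of a gene changed no call of a glutathione gene.

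Of other genes named, the processed signal also gave calls to Nqo1 (0.0104), Me1 (0.0411), Slc1a4 (0.0349), Pitpnm1 (0.0140), Ypel2 (0.0180) and Ccdc189 (0.0143), and testing only probes well above background gave one to Pitpnm1 (0.0461). The brightest Glo1 probe passed under both (0.00533 and 0.0326), and the mean of the Glo1 probes also passed (0.0174).

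With the replicate number as a block, 77 probes passed (42 higher) and no glutathione gene did (adjusted p = 0.0565 for Gclc and 0.133 for Gclm). Of the other pathway genes Gstm4 (0.0484) and both probes of Got1 (0.0433 and 0.00853) passed, and no probe of Abcc3, Tkt, Gstm1 or Glo1 did, at a lowest adjusted p of 0.0783, 0.0981, 0.0651 and 0.0835. Correlations of deviations between livers of the same number were 0.116, -0.0574 and 0.106 over 27283 probes, and control 2 was closest to soy 1 (0.0929), so the numbers were not taken as pairs. All 3 control and soy pairs on a shared slide correlated above 0 (0.116, 0.0929 and 0.106), and of the other 6 pairs 1 did (control 3 with soy 2, 0.105).

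With 3 livers a group, an exact permutation test of a single value cannot go below p = 0.1. Signals of Ggt1 and Slc7a11 were at background, so their levels were not measured.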

Other observations

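Every soy array had fewer spots well above background than every control array, with 31308 to 32498 against 36366 to 38163. Median raw intensity did not separate the groups, at 184, 164.5 and 154.5 in control and 185, 165 and 174.5 in soy livers. The part of this difference in the values above was not tested.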
